A study of Mus musculus with 4 samples.

Results

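The bone morphogenetic protein (BMP) and transforming growth factor beta (TGF-beta) genes described here are 45 genes chosen by name from the 32286 features in the files. They comprise 14 ligands, 2 genes grouped as a processing protease and a TGF-beta-induced matrix protein, 9 receptors, 7 antagonists, 8 SMADs and 5 response genes. Ligands of this superfamily bind pairs of type I and type II receptor kinases on the cell surface, which phosphorylate receptor SMADs; these join SMAD4 and act in the nucleus. BMP ligands act mainly through SMAD1, SMAD5 and SMAD9, while TGF-betas and activins act mainly through SMAD2 and SMAD3. In bone, BMPs drive osteoblast differentiation, and TGF-beta stored in the matrix couples resorption to formation.

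The cells were live, CD45.2-, Ter119- and tdTomato+ cells sorted from femurs and tibias of both limbs and profiled by 10x 3' v3.1 single-cell RNA-seq. All mice, control and immobilized, were C57BL/6J animals with the alleles Tnfsf11tTA/+, LC1 and Rosa26LSL-tdTomato, had doxycycline from E0 until birth, which kept labelling off in the fetus, and were 10 weeks old at sampling. The tTA sits at the locus of Tnfsf11, the gene of the osteoclast-inducing cytokine RANKL, so that tdTomato marks cells in which that locus was active and their descendants. The control pool came from 4 mice without immobilization. The immobilized pool came from 6 mice whose hindlimbs were immobilized for 2 weeks from the age of 8 weeks, a disuse model of bone loss. With 1 pool per group there was no test across animals; every interval below covers counting error alone, and the counts include UMIs from whatever cells each digestion released.

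The libraries were 2 lanes per pool, with 9960011 to 10860328 UMIs each. The control lanes shared 1617 of 1620 barcodes and the immobilized lanes 1747 of 1751 and 1754; the gene counts of paired lanes differed by less than sampling noise allows, so each pool is 1 sample. After filtering, 1411 control and 1394 immobilized cells remained. Cells were grouped into classes by marker genes. The Lepr+ CAR stromal-like class (Cxcl12-abundant reticular cells of the marrow) had 621 control and 357 immobilized cells, the osteo-primed stromal-like class 193 and 314, and the osteoblast-like class 483 and 489. The classes had UMIs of all 14, 11 and 10 markers of their own lists in both pools. The CAR list summed to 39002 CPM (UMIs per 1000000 of the class) in control CAR-like cells against 690 CPM in control osteoblast-like cells, and the osteoblast list to 143150 CPM in control osteoblast-like cells against 7993 CPM in control CAR-like cells. The mix of clusters within a class differed between the pools. Among CAR-like cells, cluster 10 had 239 control and 84 immobilized cells, and cluster 0 had 214 and 219. Of the osteoblast-like cells, cluster 5 had 192 and 22, cluster 1 had 133 and 205 and cluster 2 had 64 and 195. Of the osteo-primed-like cells, cluster 3 had 99 and 177 and cluster 9 had 94 and 137. Sex was called per cell from UMIs. Female cells had Xist and none of the Y-linked Ddx3y, Uty, Kdm5d and Eif2s3y, and male cells the reverse. Other cells were left uncalled. The pools also differed in these calls: female cells were 51.3% of sexed CAR-like cells for control and 30.1% for immobilized mice, and 92.7% and 78.8% of sexed osteoblast-like cells.

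Of the ligands that differed by over 1.5-fold between the pools in CAR-like cells, 4 have a promoter window in the RefSeq table, and these are shown. The differences were read from 3' tags and not from these windows. The windows hold the 250 bases (249 for Bmp5) before the RefSeq start on GRCm38.p6, each on the gene's own strand. Capitals mark the SMAD-binding box CAGAC, which reads GTCTG where it lies on the other strand, and the TATA-type motif TATAAA. The BMP-SMAD element GGCGCC was searched too, and every motif was searched on both strands; none of the 3 motifs overlaps another in its letters in these windows.
Bmp4, chr14:46390670-46390919, minus strand: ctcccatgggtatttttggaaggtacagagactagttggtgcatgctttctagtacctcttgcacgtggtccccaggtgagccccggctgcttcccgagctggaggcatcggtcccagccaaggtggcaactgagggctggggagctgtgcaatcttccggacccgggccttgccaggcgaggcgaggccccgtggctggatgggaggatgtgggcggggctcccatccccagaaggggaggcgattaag
Bmp5, chr9:75775115-75775363, plus strand: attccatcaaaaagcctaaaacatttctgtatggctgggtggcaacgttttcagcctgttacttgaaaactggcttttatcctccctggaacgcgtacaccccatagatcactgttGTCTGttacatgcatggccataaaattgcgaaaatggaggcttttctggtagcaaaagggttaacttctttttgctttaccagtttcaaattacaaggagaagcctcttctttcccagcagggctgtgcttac
Gdf10, chr14:33923337-33923586, plus strand: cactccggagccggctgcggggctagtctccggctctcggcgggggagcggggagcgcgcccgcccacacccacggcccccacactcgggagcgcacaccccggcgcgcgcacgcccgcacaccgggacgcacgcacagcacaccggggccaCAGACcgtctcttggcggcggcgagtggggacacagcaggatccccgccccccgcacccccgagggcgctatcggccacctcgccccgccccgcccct
Tgfb2, chr1:186705990-186706239, minus strand: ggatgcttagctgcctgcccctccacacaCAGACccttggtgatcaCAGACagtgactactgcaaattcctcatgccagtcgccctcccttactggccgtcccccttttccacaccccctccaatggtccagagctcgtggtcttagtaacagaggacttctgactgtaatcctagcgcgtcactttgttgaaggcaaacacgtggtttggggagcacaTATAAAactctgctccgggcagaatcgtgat
The Tgfb2 window held CAGAC at 2 places and TATAAA at 1, the Bmp5 and Gdf10 windows CAGAC at 1 place each, and the Bmp4 window none of the 3 motifs. Of the 45 genes, 29 had a window in the RefSeq table, in 34 windows. CAGAC was in 44.1% of these and in 42.2% of the 32851 windows of all genes. GGCGCC was in 29.4% and 9.59%, and TATAAA in 8.82% and 12.4%, while the median GC content was 66.6% in the member windows and 52.4% in all windows. A match is a run of letters and not evidence of binding.

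**Figure D1:**
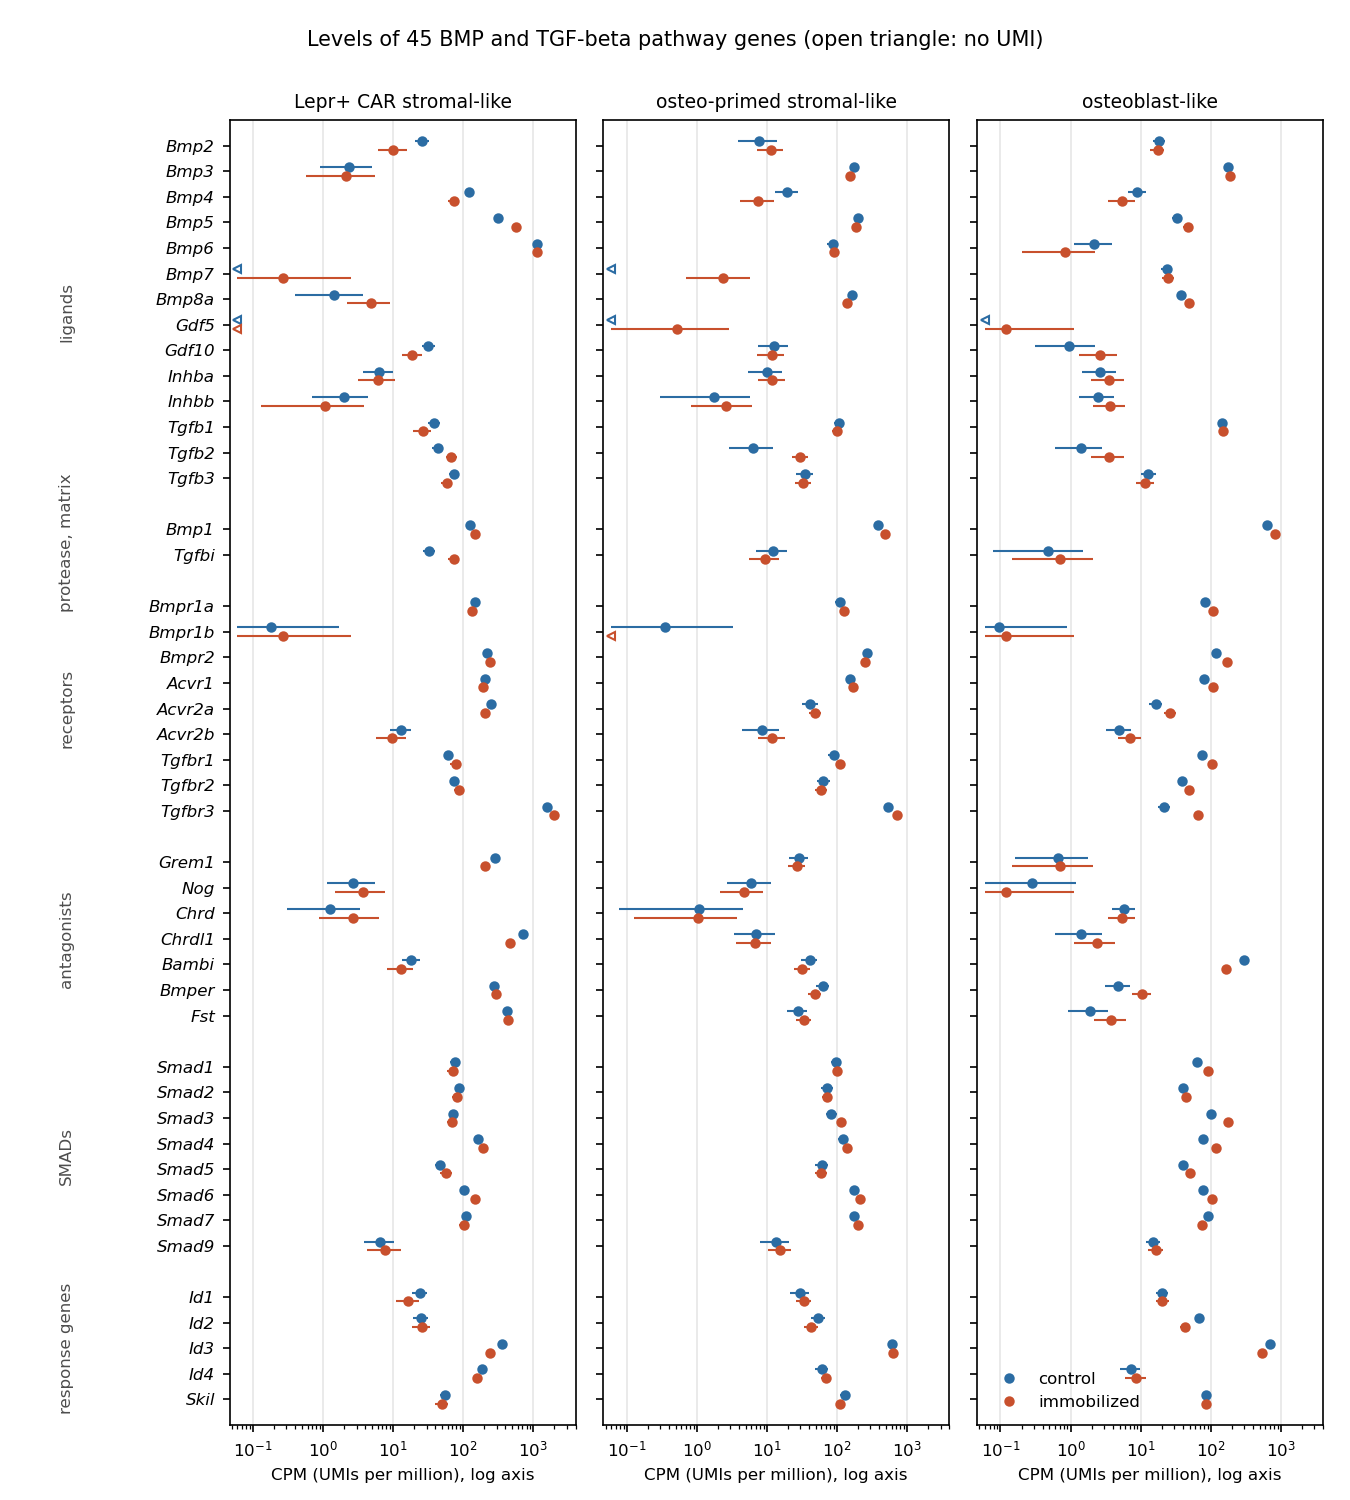
Levels of the 45 genes in CPM on a log axis, in 3 classes (panels) and 2 pools (colours), with lines for the 95% counting interval and open triangles for no UMI. Bmp6, Tgfbr3, Chrdl1, Grem1, Bmper and Fst sit highest in the CAR-like panel, and Bambi and Bmp1 in the osteoblast-like panel.

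The ligands fell into a CAR-leaning and an osteogenic-leaning set. The classes were formed from these same cells, so the levels across classes are a description. The 3' libraries count tags, and no length correction was made. Capture can differ between genes, so CPM of different genes set side by side give a rough order only. Bmp6, a ligand known for control of hepcidin and iron as well as for bone, was the most abundant ligand in CAR-like cells, with 1111 CPM for control and 1143 CPM for immobilized mice, and CAR-like cells held 95.4% and 91.3% of its UMIs. In osteo-primed-like cells it was at 87.0 and 91.7 CPM. Haematopoietic-like cells, taken as the level of free RNA, had 10.9 and 1.49 CPM from 3.5 and 0.5 UMIs, and the 2.17 and 0.829 CPM of osteoblast-like cells were below these and read as background. Expression by the haematopoietic-like cells themselves cannot be told apart from free RNA in such values. Tgfb1, Tgfbi and Skil, for instance, were higher there than in control CAR-like cells. Exons of Bmp6 overlap those of Txndc5 on the opposite strand, as do those of Acvr2a with Orc4, of Chrd with Thpo and of 8 other members, among them Bmp4, Bmp5 and Tgfb2, with predicted or unnamed genes; the sources used here do not state the strand setting of the counting.

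Bmp5, a ligand of the same subfamily as Bmp6 and Bmp7, was read in all 3 classes, at 309 CPM in control CAR-like, 197 CPM in control osteo-primed-like and 33.1 CPM in control osteoblast-like cells. Bmp4, an osteogenic ligand, followed the same order of classes at lower levels, with 119, 19.5 and 8.88 CPM in the control pool. Gdf10, which encodes BMP3b, was at 31.7, 12.7 and 0.945 CPM in the same order. These ligands thus shared a CAR-high pattern, and Tgfb2 and Tgfb3 had it too, at 43.0 and 73.0 CPM in control CAR-like against 1.42 and 12.9 CPM in control osteoblast-like cells.

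Bmp3, an atypical BMP that antagonizes osteogenic BMP signals, ran the other way. It had 6.5 UMIs in the 621 control CAR-like cells, against 177 CPM in both control osteo-primed-like and control osteoblast-like cells, whose counting intervals overlapped. Bmp8a was also low in CAR-like cells (4 UMIs) and was at 164 CPM in control osteo-primed-like and 37.8 CPM in control osteoblast-like cells; its reads can be confused with those of its near-identical copy Bmp8b. Bmp7, another osteogenic BMP, was nearly confined in UMIs to osteoblast-like cells, which held 98.4% of its UMIs for control and 88.9% for immobilized mice. Tgfb1, the main TGF-beta of bone matrix, was highest of the 3 classes in osteoblast-like cells, at 143 CPM in the control pool against 108 in osteo-primed-like and 38.2 in CAR-like cells; the haematopoietic-like cells had 80.9 CPM.

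Bmp2, the BMP used clinically to induce bone, was low in the 3 classes (7.78 to 26.0 CPM in the control pool). In the immobilized pool 46 osteocyte-like cells held 50% of the immobilized pool's Bmp2 UMIs, at 975 CPM, with a UMI in 30 of the 46 cells. The control pool had 5 osteocyte-like cells with 3.5 Bmp2 UMIs, which is too few to compare. Inhba and Inhbb, the beta subunits of activins and inhibins, stayed at 12 CPM or below, and Gdf5, a joint-forming ligand, had at most 1 UMI in any of the 3 classes.

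The kinase receptors were read in all 3 classes, mostly at lower levels in osteoblast-like cells. Bmpr1a and Bmpr2 (type I and type II BMP receptors) were at 146 and 217 CPM in control CAR-like cells, 112 and 270 CPM in control osteo-primed-like cells and 84.0 and 121 CPM in control osteoblast-like cells. Acvr1, a type I receptor for BMPs and activins, was at 201, 155 and 79.5 CPM in the same order. Tgfbr1 and Tgfbr2, the TGF-beta receptor kinases, lay between 39.5 and 89.1 CPM in the 3 control classes. Acvr2a, a type II receptor of activins and BMPs, was higher in CAR-like cells (249 CPM) than in the osteo-primed-like (41.4) and osteoblast-like (16.6) cells. Bmpr1b was nearly absent, with at most 0.5 UMIs per class and pool, and Acvr2b stayed below 13 CPM.

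Tgfbr3, which encodes betaglycan, a co-receptor that presents TGF-beta2 and binds inhibins, had the widest range of the receptors. It was at 1565 CPM in control CAR-like cells, 540 CPM in control osteo-primed-like cells and 21.5 CPM in control osteoblast-like cells. The last value lay below the 40.4 CPM of haematopoietic-like cells, which had a UMI of it in 12.3% of cells, with a median of 2985 UMIs in the granulocyte-like cluster and 2600 in the mixed haematopoietic cluster, which was led by B-lineage genes, against 14.0% of osteoblast-like cells with a median of 9691.

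The secreted antagonists were mostly CAR-like genes. Chrdl1 (chordin-like 1, which binds BMPs), Fst (follistatin, which binds activins), Grem1 (gremlin 1, which binds BMP2 and BMP4) and Bmper (a chordin-like modulator of BMPs) were at 706, 425, 284 and 278 CPM in control CAR-like cells, and CAR-like cells held 99.0%, 94.9%, 94.1% and 86.5% of their UMIs. Chrdl1 was among the genes that led the CAR-like clusters. Bambi, a membrane pseudoreceptor that dampens the signal, had the opposite distribution, with 18.1 CPM in CAR-like and 297 CPM in osteoblast-like control cells. The classical antagonists Nog (noggin) and Chrd (chordin) had 7.5 and 3.5 UMIs in control CAR-like cells and 1.5 and 30.5 in control osteoblast-like cells.

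Of the SMADs, Smad1 and Smad5 of the BMP branch, Smad2 and Smad3 of the TGF-beta branch and the shared Smad4 were each between 40.2 and 162 CPM in the 3 control classes, and Smad9 was the lowest, at 6.46 to 15.02 CPM. The inhibitory Smad6 and Smad7 were highest in control osteo-primed-like cells, at 175 and 176 CPM. Among the response genes, the Id genes encode inhibitors of basic helix-loop-helix factors and are direct BMP targets. Id3 was the most abundant of the Id genes in each class, with 354, 602 and 692 CPM in control CAR-like, osteo-primed-like and osteoblast-like cells, and Id4 was the CAR-leaning one, at 185 CPM against 60.8 and 7.18. Bmp1, the procollagen C-proteinase that also cleaves chordin, had the opposite order to Id4, at 123, 381 and 628 CPM. Tgfbi, a secreted matrix protein induced by TGF-beta, was at 32.6, 12.0 and 0.472 CPM. Skil, which encodes the SMAD co-repressor SnoN, was at 55.2, 128 and 85.3 CPM beside 93.3 CPM in haematopoietic-like cells.

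Between the pools, CAR-like cells of immobilized mice had more Bmp5, Tgfb2 and Tgfbi and less Bmp2, Bmp4, Gdf10 and Chrdl1 than those of control mice. A gene was taken as measured where its UMIs, averaged over the lanes, reached 50 in at least 1 pool, and was called where its ratio was past 1.5-fold. In CAR-like cells 34 of the 45 genes were measured and 7 were past the fold, 3 higher and 4 lower in the immobilized pool. Over all 7862 measured genes of the class, 8.6% were past it in either direction (3.83% higher and 4.77% lower). By role, 5 of 8 measured ligands, 1 of 5 antagonists, 1 of the 2 protease and matrix genes and none of 7 receptors, 7 SMADs or 5 response genes were past the fold. The median log2 ratio was -0.43 for the ligands, -0.49 for the antagonists, 0.14 for the receptors, -0.05 for the SMADs and -0.23 for the response genes, beside 0.02 for all measured genes.

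**Figure D2:**
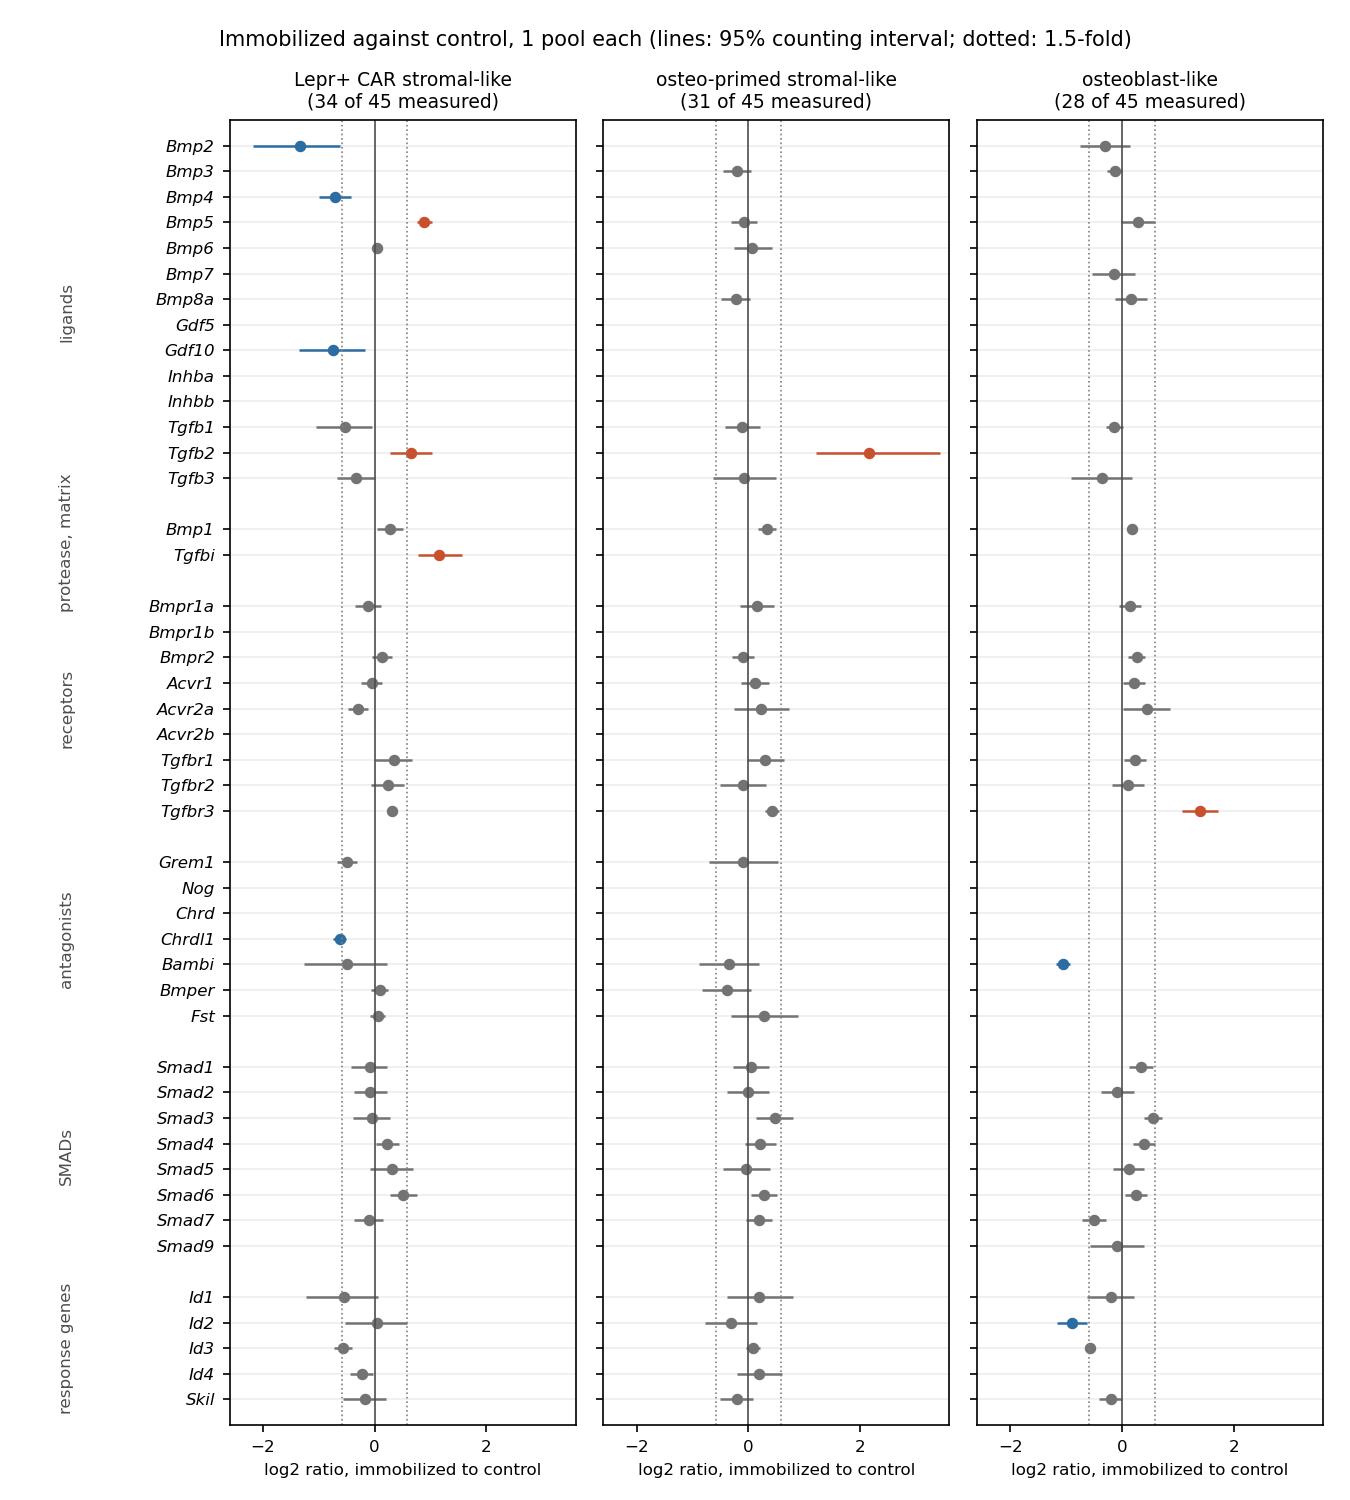
Log2 ratio of CPM, immobilized to control pool, for the measured genes in 3 classes, with lines for the 95% counting interval, dotted lines at 1.5-fold and colour for genes past it (orange higher, blue lower). In CAR-like cells 7 genes are past the fold, in osteo-primed-like cells 1 and in osteoblast-like cells 3.

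Bmp5 had 837 and 884 UMIs in the control lanes and 1073 and 1086 in the immobilized lanes, from fewer cells. Its level was 309 CPM (288 to 330) for control and 573 CPM (539 to 608) for immobilized mice, with a log2 ratio of 0.89 (0.76 to 1.02). The intervals of the pools do not overlap. The share of cells with a UMI went from 58.6% to 76.5%, and from 40.0% to 57.6% when cells were thinned to 2000 UMIs. In haematopoietic-like cells these shares were 0.725% and 1.69%. The difference was not of one kind in each cluster: Bmp5 went from 349 to 639 CPM in cluster 0 and from 222 to 581 CPM in cluster 10, but from 449 to 340 CPM in cluster 4.

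Bmp2 was at 26.0 CPM (20.4 to 32.7) for control and 10.1 CPM (6.07 to 15.7) for immobilized mice, with a log2 ratio of -1.34 (-2.18 to -0.62). It rested on 72.5 and 19 UMIs, in 84 and 26 cells. Bmp4 was at 119 CPM (107 to 133) and 73.0 CPM (61.3 to 86.2), with a log2 ratio of -0.70 (-1.004 to -0.42). Both genes were lower in the immobilized pool in each of clusters 0, 4 and 10, although Bmp2 rested on 11.5, 3 and 4.5 immobilized UMIs there. Bmp4 was read at 122 and 77.6 CPM in cluster 0, at 108 and 54.6 CPM in cluster 4 and at 124 and 76.1 CPM in cluster 10. Outside CAR-like cells Bmp4 fell short of the count minimum, with 27.5 and 14.5 UMIs in osteo-primed-like and 47 and 23 UMIs in osteoblast-like cells of the control and immobilized pools.

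Gdf10 was at 31.7 CPM for control and 18.8 CPM for immobilized mice, with a log2 ratio of -0.74 (-1.36 to -0.18) from 88.5 and 35.5 UMIs. Its ratio spanned -1.10 without cluster 4 to -0.38 without cluster 0 and was past the fold in 11 of the 16 alternative settings in which it was measured. Tgfb2 was at 43.0 CPM (35.7 to 51.5) and 67.4 CPM (56.2 to 80.2), with a log2 ratio of 0.65 (0.28 to 1.02). Lane 1 alone gave Tgfb2 a ratio of 0.53, short of the fold, and lane 2 alone 0.76. Within clusters Tgfb2 was higher in the immobilized pool in cluster 0 (28.4 and 57.5 CPM) and cluster 10 (50.1 and 109 CPM) and level in cluster 4 (53.9 and 54.6 CPM).

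Tgfb1 and Tgfb3, the other TGF-betas, were below 0 over the class and short of the fold, at -0.53 (-1.06 to -0.04) and -0.32 (-0.68 to 0.01). In female and male cells Tgfb1 was at -0.82 (-1.87 to 0.02) and -0.02 (-0.78 to 0.74), with the male value below the count minimum. Tgfb3 was at -0.35 (-0.88 to 0.13) and 0.47 (-0.17 to 1.13), and these differences between the sexes were not tested. Bmp6 was at 0.04 (-0.04 to 0.12) over the class, but its clusters differed: it was at 1180 and 1200 CPM in cluster 0, 624 and 268 CPM in cluster 4 (-1.21, -1.57 to -0.88) and 1355 and 1698 CPM in cluster 10 (0.33, 0.19 to 0.46). Tgfbi was at 32.6 CPM (26.3 to 40.1) for control and 73.0 CPM (61.3 to 86.2) for immobilized mice, with a log2 ratio of 1.16 (0.77 to 1.56). Tgfbi differed most in cluster 4, with 15.03 and 158 CPM, and without cluster 4 its ratio was 0.57, just short of the fold. Its level in haematopoietic-like cells was 68.4 and 49.0 CPM.

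Chrdl1 was at 706 CPM (676 to 738) for control and 457 CPM (427 to 489) for immobilized mice, with a log2 ratio of -0.63 (-0.75 to -0.51). Chrdl1 lies on the X chromosome (chrX:143285674-143394262, minus strand, mm10), and its ratio was -0.31 in female and -0.82 in male cells. Without cluster 0 it was -0.44, short of the fold, and with the pathway genes kept out of the clustering it was -0.64. Grem1 was at 284 and 202 CPM, with a ratio of -0.49 (-0.67 to -0.31), short of the fold. Fst and Bmper, the other CAR-like antagonists, were at 0.05 and 0.09 over the class, with opposite signs by sex. For Fst the ratio was 0.49 (0.24 to 0.74) in females and -0.35 (-0.51 to -0.18) in males, and for Bmper 0.60 (0.18 to 1.0) and -0.42 (-0.60 to -0.23); the differences between the sexes were not tested. Bambi, on 50.5 and 24 UMIs, was at -0.49 (-1.27 to 0.22). Over the class the antagonists thus split, with Chrdl1 and Grem1 below 0 with intervals that leave out 0, and Fst, Bmper and Bambi with intervals that hold it.

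Bmp1 was at 123 and 148 CPM, with a ratio of 0.27 (0.04 to 0.50). Receptors and SMADs were within 1.5-fold. Tgfbr3 was at 1565 and 1945 CPM, with a log2 ratio of 0.31 (0.25 to 0.38), and Acvr2a at 249 and 202 CPM, with a ratio of -0.30 (-0.48 to -0.12). Acvr2a was at 0.06 (-0.22 to 0.34) in female and -0.40 (-0.68 to -0.13) in male cells. The kinase receptors Bmpr1a, Bmpr2 and Acvr1 were at -0.12, 0.14 and -0.06 with intervals that held 0, and Tgfbr1 and Tgfbr2 at 0.34 and 0.23. Of the signal-carrying SMADs, Smad1, Smad2, Smad3 and Smad5 were at -0.09, -0.07, -0.05 and 0.31, with intervals that held 0, and Smad4 was at 0.23 (0.02 to 0.43). The inhibitory Smad7 was at -0.11. Smad6, which is itself a BMP target, had the highest SMAD ratio of these cells, at 0.52 (0.27 to 0.76). Without cluster 0 its ratio was 0.00. Id3 and Id1 lay just inside the fold, at -0.56 (-0.73 to -0.40) and -0.56 (-1.24 to 0.07), while Id2 was at 0.04 (-0.53 to 0.58), Id4 at -0.23 (-0.45 to -0.03) and Skil at -0.17 (-0.56 to 0.21). By sex, Id3 was at -0.12 (female cells) and -0.90 (male cells), and Id4 at -0.58 (-0.99 to -0.20) and 0.14 (-0.15 to 0.44). The differences between the sexes were not tested. Without cluster 0 Id1, then below the count minimum, was at 0.38. Under median-ratio scaling, which shifts every CAR-like ratio by -0.04, both Id1 and Id3 were past the fold, at -0.60 and -0.61.

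**Figure D3:**
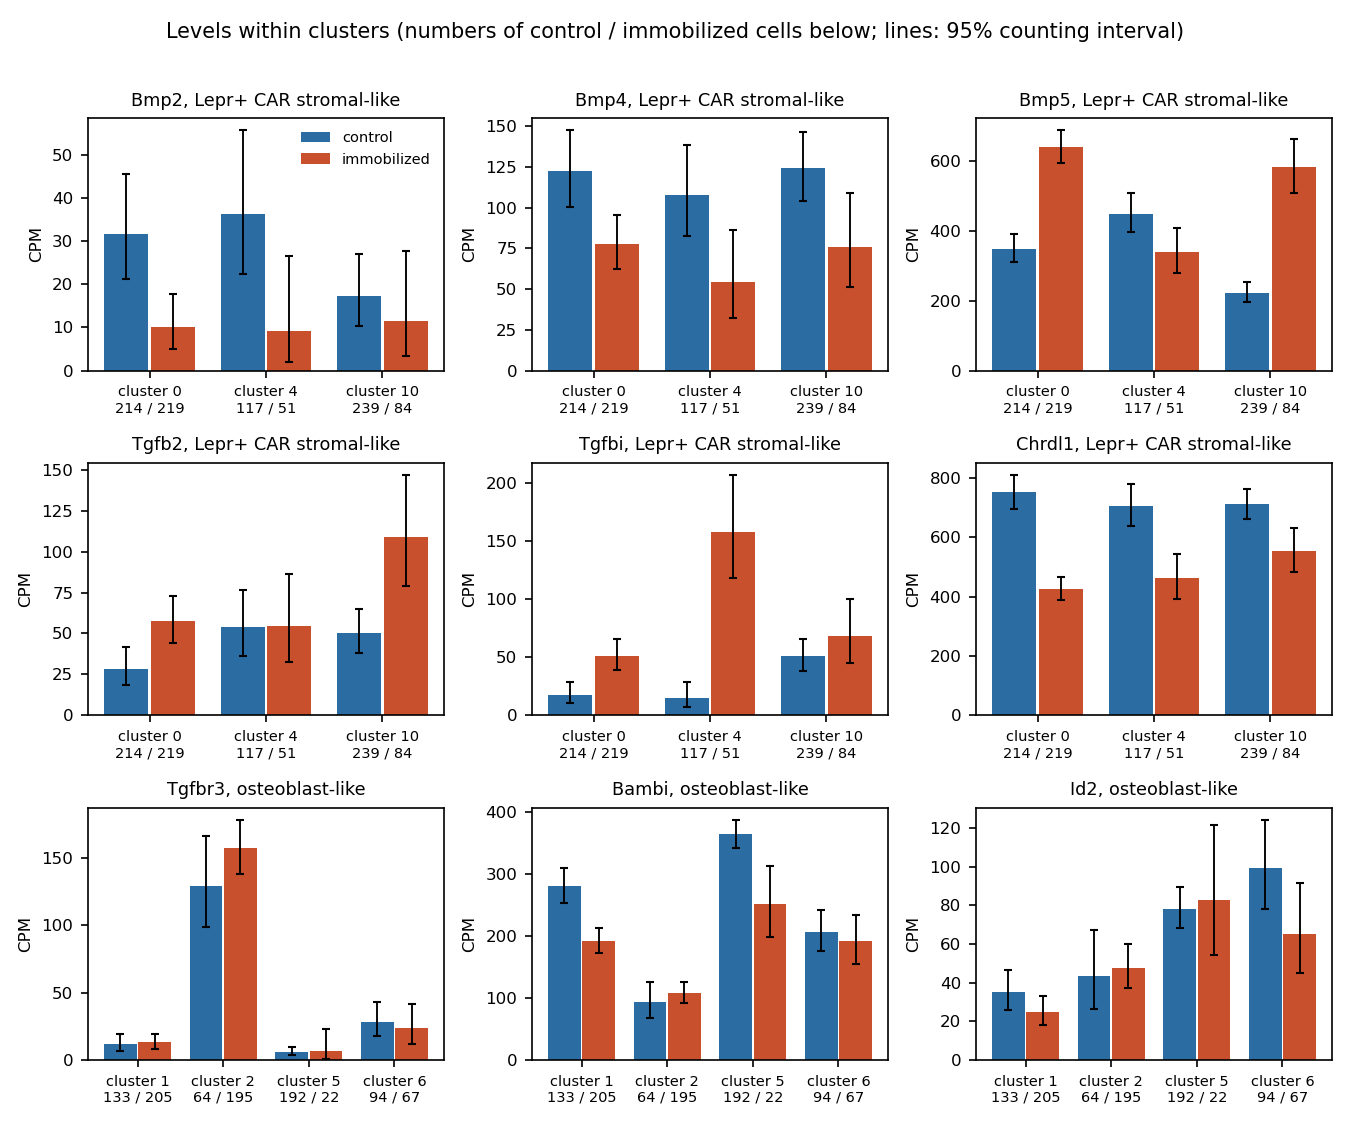
CPM of 9 calls within clusters of the class, control and immobilized bars side by side with 95% counting intervals; cell numbers are printed below, and cluster 8 with 3 immobilized cells is left out. Bmp4 and Chrdl1 are lower in the immobilized pool in each of 3 CAR-like clusters, whereas Tgfbr3 in osteoblast-like cells is close between pools within clusters and high in cluster 2.

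Other measurements moved with the CAR-like values. Of 12 dissociation and stress genes, 10 were measured and all 10 were past the fold lower in the immobilized pool (median log2 ratio -1.44), with a summed level of 1955 CPM for control and 698 CPM for immobilized mice. In cells below the class median of the stress share, Bmp4, Bmp5, Tgfb2, Tgfbi and Chrdl1 were past the fold in the same direction as in all cells, at -0.67, 0.77, 0.78, 1.33 and -0.60. Bmp2 and Gdf10, at -1.35 and -0.57, were below the count minimum there. In female and male cells apart, Bmp5 was at 1.18 and 0.62, Bmp4 at -0.73 and -0.76, Tgfb2 at 0.82 and 0.86 and Tgfbi at 0.83 and 2.13. Bmp2 was at -1.58 and -1.44, below the count minimum in both sexes. Gdf10 was short of the fold in both, at -0.57 (-1.61 to 0.27) and -0.47 (-1.41 to 0.43), with the male value below the minimum. Its control level was 41.1 CPM in female and 21.8 CPM in male cells, and the part of the sex mix was not tested. The osteoblast marker list in CAR-like cells summed to 7993 and 5274 CPM, the erythroid list to 162 and 449 CPM and the granulocyte list to 187 and 373 CPM; no osteoblast or erythroid marker was at 0 in either pool, 1 granulocyte marker was at 0 in the control pool, and the part of these lists in the ratios was not tested.

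In osteo-primed stromal-like cells few of the genes were past the fold over both sexes. Of 31 measured genes 1 was past the fold, Tgfb2, beside 7.51% of all 6181 measured genes (4.63% higher and 2.88% lower). Tgfb2 was at 6.37 CPM for control and 30.0 CPM for immobilized mice, with a log2 ratio of 2.17 (1.21 to 3.43). It came from 9 and 58 UMIs, and 1 immobilized cell held 44 of the 58. The other 14 UMIs were spread over 313 cells, the shares of cells with a UMI were 3.63% and 3.82%, and cluster 3 had 12.3 and 12.0 CPM. Most of the immobilized value therefore came from 1 cell. A similar case was seen among immobilized osteocyte-like cells, where 1 cell held 37 of the 40 Tgfb2 UMIs.

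Other genes of the osteo-primed-like class lay inside the fold, and 5 of the 31, Tgfb2 included, had an interval that left out 0. Tgfbr3 was at 540 and 726 CPM, with a log2 ratio of 0.43 (0.30 to 0.56). Bmp1 was at 0.33 (0.18 to 0.49), Smad3 at 0.47 (0.15 to 0.81) and Smad6 at 0.29 (0.06 to 0.52). Bmp1 stayed between 0.25 and 0.44 in all alternatives, but Smad3 and Smad6 varied with the cells used. Smad3 was at -0.08 without cluster 9 and 0.97 without cluster 3. Females gave Smad3 0.76 (0.36 to 1.17), past the fold, and males 0.09 (-0.52 to 0.75). Smad6 was at -0.15 among low-stress and 1.09 among high-stress cells, and males gave it -0.09 (-0.47 to 0.31). None of these contrasts was tested. The ligands of this class, Bmp3, Bmp5, Bmp6 and Bmp8a, were at -0.21, -0.07, 0.07 and -0.22, and Tgfb1 and Tgfb3 were at -0.11 and -0.07, each with an interval that held 0. By sex, Bmp8a was at 0.27 (-0.09 to 0.63) in females and -0.85 (-1.26 to -0.44) in males, where it was past the fold, and Bmp3 at 0.09 (-0.25 to 0.43) and -0.58 (-0.98 to -0.17); these differences between the sexes were not tested. The kinase receptors Bmpr1a, Bmpr2, Acvr1, Acvr2a, Tgfbr1 and Tgfbr2 were at 0.15, -0.10, 0.12, 0.23, 0.30 and -0.09, and the antagonists Grem1, Bambi, Bmper and Fst at -0.10, -0.35, -0.39 and 0.28. Smad1, Smad2, Smad4, Smad5 and Smad7 were at 0.04, -0.01, 0.21, -0.04 and 0.19. The response genes Id1, Id2, Id3, Id4 and Skil were at 0.20, -0.32, 0.08, 0.19 and -0.21, and all of these intervals held 0. Some of these genes had opposite signs by sex. In females and males Id1 was at 1.14 (0.31 to 2.06) and -1.04 (-1.93 to -0.15), and Id2 at 0.21 and -1.26 (-2.10 to -0.43). Bmper was at 0.22 and -1.52 (-2.32 to -0.76), and Fst at 1.21 and -0.69. These male values and the female Id1 and Fst values were below the count minimum, and the differences were not tested. Bmp5 therefore was past the fold in CAR-like and not in osteo-primed-like cells; the difference between the classes was not tested, and all 3 comparisons share the same pools of animals. In this class the stress list was below 0 for 10 of 10 measured genes and past the fold for 3, with a summed level of 3450 and 2389 CPM.

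Osteoblast-like cells of immobilized mice, taken as a class, had more Tgfbr3 and less Bambi and Id2, and these differences were smaller at an equal mix of clusters. Of 28 measured genes 3 were past the fold, 1 higher and 2 lower, which is 10.7% of them beside 15.5% of all 8149 measured genes of the class (5.91% higher and 9.56% lower). The ratios of this class are relative to the median of all genes, which was 0.22 on the log2 scale. By total counts 6 genes were past the fold, 4 higher and 2 lower, beside 19.0% of all measured genes. Acvr2a, Smad3 and Smad4 were the ones added, at 0.66, 0.77 and 0.61.

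Tgfbr3 had 111 and 117 UMIs in the control lanes and 273 and 286 in the immobilized lanes, or 21.5 CPM (17.8 to 25.9) and 66.2 CPM (58.7 to 74.4). The log2 ratio was 1.40 (1.08 to 1.73), and the control level lay below that of haematopoietic-like cells. Within clusters the levels were close: 129 and 157 CPM in cluster 2, 11.6 and 13.1 CPM in cluster 1 and 28.6 and 23.6 CPM in cluster 6. Cluster 2, where Tgfbr3 was highest, had 64 control and 195 immobilized cells, and without it the ratio was 0.18. With Scrublet calls kept, which also changed the clusters, it was 0.19. The direction was not the same in both sexes: Tgfbr3 was at 16.4 and 75.6 CPM in female cells but at 98.2 and 32.9 CPM in the 34 control and 97 immobilized male cells, from 31 UMIs in each pool. The male value was below the count minimum, and the difference between the sexes was not tested.

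Bambi was at 297 CPM (283 to 312) for control and 166 CPM (154 to 179) for immobilized mice, with a log2 ratio of -1.06 (-1.19 to -0.93). It was read in 75.8% and 58.2% of cells, and in 36.7% and 24.0% after thinning; haematopoietic-like cells had 6.52% and 2.12%. In female cells its ratio was -1.25 (-1.40 to -1.10), and in the few male cells 0.25 (-0.17 to 0.72). By cluster, Bambi was at 365 and 252 CPM in cluster 5 and 281 and 192 CPM in cluster 1, and at 93.3 and 109 CPM in cluster 2. Id2 was at 67.4 CPM (60.5 to 74.7) and 42.3 CPM (36.3 to 48.9), with a log2 ratio of -0.89 (-1.16 to -0.63). Its ratio was -0.94 (-1.24 to -0.65) in female cells and 0.20 (-0.73 to 1.33) in male cells. The male value rested on 11.5 and 40.5 UMIs, below the count minimum, and the difference between the sexes was not tested. Without cluster 5 Bambi was at -0.50 and Id2 at -0.52, both short of the fold. Where both pools were given the same mix of clusters, Tgfbr3 was at 0.22, Bambi at -0.37 and Id2 at -0.19, and none of the 28 genes was past the fold beside 6.17% of all genes. The 3 differences were thus smaller at an equal cluster mix than in the class as a whole.

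Of the 7 measured osteoblast-like receptors, Tgfbr3 included, all were above 0, beside 48.8% of all measured genes, with a median of 0.23 and intervals that left out 0 for Bmpr2 (0.26), Acvr1 (0.22), Acvr2a (0.44), Tgfbr1 (0.23) and Tgfbr3. Bmpr1a and Tgfbr2, at 0.14 and 0.10, had intervals that held 0. With the same mix of clusters Bmpr1a was at 0.00, Tgfbr2 at 0.03, Tgfbr1 at 0.08 and Acvr1 at 0.09, and among low-stress cells Bmpr1a was at -0.08 and Tgfbr2 at -0.16. Smad3 was at 102 and 175 CPM, with a ratio of 0.56 (0.39 to 0.72), and Smad4 at 0.39 (0.20 to 0.58), whereas the inhibitory Smad7 was at 91.8 and 75.4 CPM, with a ratio of -0.50 (-0.71 to -0.30). Smad1 and Smad6 were at 0.33 and 0.25 with intervals above 0, and Smad2, Smad5 and Smad9 at -0.08, 0.12 and -0.09 with intervals that held it. With the same mix of clusters Smad3 was at 0.41, Smad4 at 0.26 and Smad7 at -0.14. Over the class the 4 measured response genes were below 0, beside 51.2% of all measured genes, with a median of -0.39. Id1 and Skil, at -0.20 and -0.20, turned to 0.45 and 0.01 with the same mix of clusters, and Skil to 0.14 among low-stress cells. Id3 was at 692 and 539 CPM, with a ratio of -0.58 (-0.66 to -0.50), just inside the fold, and without cluster 5 at -0.23. The 7 measured ligands were within the fold, among them Bmp3 at -0.13, Tgfb1 at -0.14, Bmp7 at -0.15, Bmp2 at -0.30, Tgfb3 at -0.36, Bmp8a at 0.17 and Bmp5 at 0.28. Bmp1 was at 628 and 830 CPM, with a ratio of 0.18 (0.12 to 0.25).

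In the same osteoblast-like cells 9 of the 12 stress genes were past the fold lower, and 12 of 12 were below 0, with a summed level of 4122 CPM for control and 2917 CPM for immobilized mice. Among cells with a low stress share Tgfbr3 was at 1.19, Bambi at -1.19 and Id2 at -0.30; among cells with a high share Id2 was at -1.01. The osteoblast marker list summed to 143150 and 105580 CPM, the osteo-primed list to 3542 and 7805 CPM and the chondrocyte list to 2288 and 600 CPM, with none of their markers at 0 in either pool. Their part in the ratios was not tested.

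**Figure D4:**
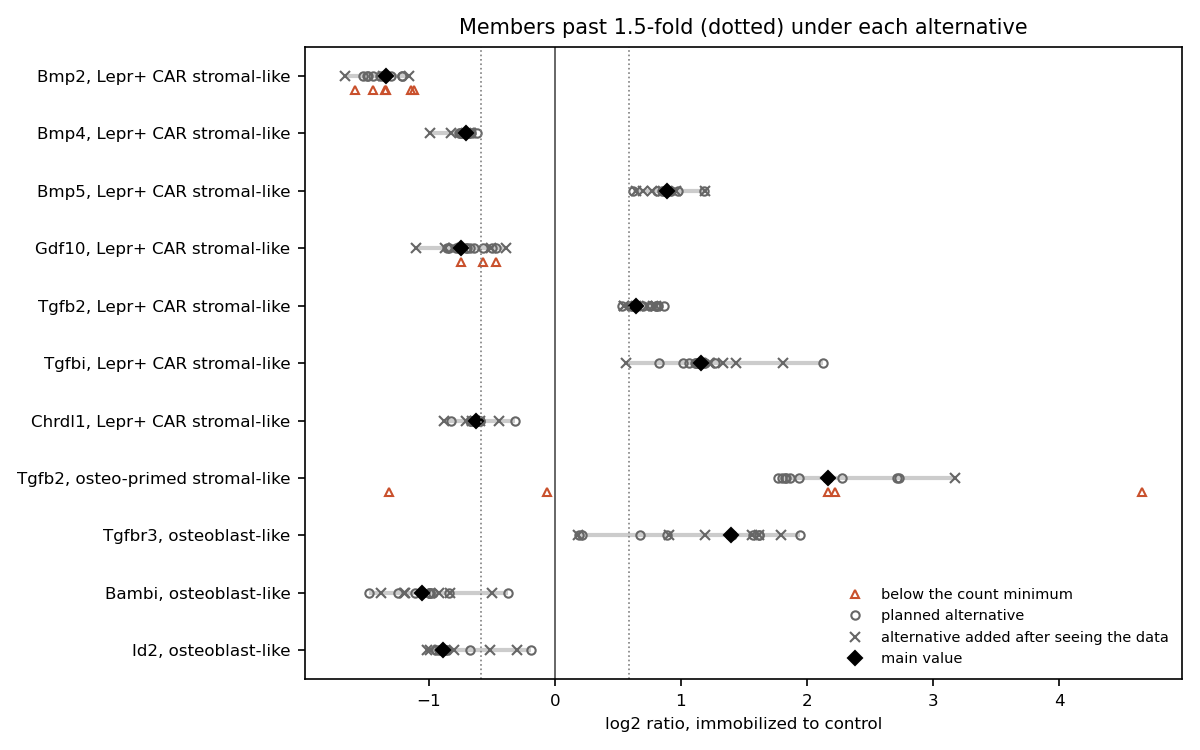
Log2 ratio of the 11 calls past 1.5-fold in the main setting (diamonds) and under each alternative (circles planned, crosses added after seeing the data, triangles where the gene was below the count minimum), with dotted lines at 1.5-fold. In CAR-like cells Bmp4 and Bmp5 are beyond the fold in 19 of 19 alternatives and Bmp2 in the 13 in which it was measured, while Tgfbr3, Bambi and Id2 in osteoblast-like cells come inside it in 2 or 3 of 18. The alternatives share the same pools and are not independent.

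The wider pathway was read from 70 other genes. In CAR-like cells 5 of 36 measured were past the fold, beside 8.6% of all measured genes, and all 5 were among the 9 measured genes of latency and activation of TGF-beta and BMP. Fbn1, the fibrillin that tethers latent TGF-beta in microfibrils, was at 1086 and 2372 CPM, with a log2 ratio of 1.13 (1.06 to 1.19), and Ltbp1, a latent TGF-beta binding protein, at 336 and 532 CPM, with a ratio of 0.66 (0.53 to 0.79). Ltbp2 was lower, at 460 and 236 CPM and -0.96 (-1.12 to -0.81). Thbs1 (thrombospondin 1, an activator of latent TGF-beta) and Pcolce (an enhancer of BMP1 activity) were lower too, at -0.68 and -0.78. None of the other receptors (6 measured), antagonists (4), intracellular regulators (9) or response genes (8) was past the fold there.

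In osteo-primed-like cells 2 of 31 other genes were past the fold, beside 7.51% of all measured genes, with Crim1 (a membrane protein that binds BMPs) higher at 0.82 and Thbs1 lower at -0.82. In osteoblast-like cells these were 10 of 31, or 32.3%, 3 higher and 7 lower, beside 15.5% of all measured genes (5.91% higher and 9.56% lower). At an equal mix of clusters 6.17% of all genes were past the fold, and these 31 genes are not given at that mix. Among response genes, Ccn2 (connective tissue growth factor) and Postn (periostin) were higher, at 0.81 (0.54 to 1.09) and 0.83 (0.64 to 1.02), and Klf10 and Tsc22d1 lower, at -0.85 and -1.15. The TGF-beta response genes of this list thus did not move in 1 direction. Postn is also a marker of the osteo-primed list, which summed to 3542 CPM for control and 7805 CPM for immobilized mice in osteoblast-like cells. The part of this and of the cluster mix in the ratios was not tested. Smurf1, an E3 ligase for SMADs and receptors, was at 0.69, and the ligand Gdf11, the antagonist Nbl1, the TGF-beta-binding proteoglycan Dcn and Thbs1 were at -0.66, -0.59, -0.95 and -0.81.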

How the data were processed

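The deposited values were raw UMI counts per gene and barcode in each lane, made with Cell Ranger 7.0.0 on mm10, per the submitters' processing notes. No source used here names the annotation. Feature names and barcodes were deposited as text. Of 32286 feature IDs, 32235 matched GENCODE M21 on GRCm38, the assembly of mm10. Promoter sequences are from RefSeq. Barcodes with at least 500 genes, under 10% mitochondrial counts and no Scrublet call (18 control, 9 immobilized) were kept; 90 and 126 were under the gene minimum and 146 and 300 at the mitochondrial limit. Cells of both pools were clustered in scanpy 1.11.5 (2000 variable genes, 30 components, 15 neighbours, Leiden resolution 1.0, 16 clusters) with no batch integration, and named where at least 3 markers and 30% of a list were over 2-fold and in at least 10% of cells.

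UMIs were summed per class and lane, and the lanes averaged, so counts can end in 0.5. Ratios of CPM use a pseudocount of 0.5 counts and carry an exact conditional binomial 95% interval, levels an exact Poisson one; both treat UMIs as independent. Ratios were centred where the median of all genes was over 0.1 in size (osteoblast-like cells). No p-value was computed. The scripts were tested on simulated counts. Fewer transcripts per cell and fewer transcribing cells cannot be told apart in class sums. Shares of cells follow the sort and the digestion. No genome sequence or protein sequence was used. Named genes are the 45 members, and other pathway and stress genes past the fold or bearing on a member; members and lists were chosen with earlier results of these data known. One other pathway gene past the fold is counted but not reported here by name.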

Additional observations from a re-analysis of the deposited data

How the results depend on the processing

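No paired analysis was possible because the lane numbers shared by the groups mark sequencing lanes of 1 pool each and not animals. In CAR-like cells Bmp4 and Bmp5 were past 1.5-fold in the same direction in each of 19 alternatives, with ranges of -0.99 to -0.62 and 0.62 to 1.19. Bmp2 was past it in the 13 in which it reached the count minimum (-1.66 to -1.15), and over all 19 it ranged from -1.66 to -1.12. In the main setting Bmp2 reached that minimum through the control pool alone, with 72.5 control and 19 immobilized UMIs. The alternatives are not independent: they include count minimums of 10 and 100, which leave a gene's counts unchanged, and single lanes of 1 pool. The count of genes past the fold in this class was 5 to 10 (main 7), and 7 to 9 by lane, beside 7.03% to 15.8% of all measured genes (main 8.6%). Chrdl1 was past it in 17, Tgfbi in 18 and Tgfb2 in 16 of the 19, and Gdf10 in 11 of 16 with enough counts. In osteo-primed-like cells (main 1) the count was 2 with a count minimum of 10, the stricter cell filter or female cells, 0 with a minimum of 100, and 1 to 2 by lane. The shares of all measured genes were 15.5%, 7.47%, 13.0% and 5.53% in the same order, 8.75% to 9.28% by lane, and 7.51% in the main setting. Of the alternatives chosen after seeing the data, it was 3 without cluster 3, 0 without cluster 9 or in low-stress cells and 6 in high-stress cells. All measured genes moved as well, with shares past the fold of 12.4%, 6.85%, 6.57% and 16.4% in the same order. Tgfb2 there was at -0.061 without cluster 9, on 8 and 12 UMIs, and at -1.32 in low-stress cells; both are below the count minimum and show no direction. In osteoblast-like cells (main 3) the count was 6 by total counts or with pathway genes left out of clustering, 9 with a minimum of 10, 7 with the stricter filter, 5 with the looser filter, Scrublet calls kept or Leiden resolution 2.0, 0 with 1 cluster mix, and 3 to 5 by lane. After seeing the data, it was 5 without cluster 2, without cluster 6 or in high-stress cells and 1 without cluster 5. The shares of all measured genes there were 14.6%, 17.9%, 20.2% and 6.63%. The cause was not tested. Male osteoblast-like cells, 34 in the control pool, were not run as a setting, since fewer than 50 were present. Depth limits the rest: 11 genes in CAR-like, 14 in osteo-primed-like and 17 in osteoblast-like cells fell short of the count minimum.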
